A study of Mus musculus with 24 samples.

Results

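The distal end of the control mouse maxilla was compared with its proximal end at embryonic day 14.5, within the upper jaw alone. The comparison rests on 3 arrays titled as control distal maxilla and 3 titled as control proximal maxilla, chosen by those titles, so 6 of the 24 arrays of the series. Total RNA of each piece had been labelled and hybridised to a one-colour Affymetrix mouse array, and every level given is the deposited log2 signal of 1 probe set. The maxillae came from C57B6 embryos of crosses between Wnt1cre;Tgfbr2fl/+ and Tgfbr2fl/fl mice. Control embryos were littermates of embryos recognised as mutant by a cleft palate and a defective skull vault, and the alleles that the controls themselves carried are not stated in the labels. Each jaw had been cut into a distal piece, which in the face is the end towards the snout tip, and a proximal piece towards the jaw hinge. In the other groups used below, 3 distal and 3 proximal control mandible arrays and 3 distal and 3 proximal mutant maxilla arrays came from the same crosses, and in the mutants Wnt1-Cre removes the floxed receptor from the neural crest and its descendants, and from part of the neural tube, but not from surface ectoderm. The labels call the pieces bone and do not say whether replicates were single embryos or pools, so p-values measure the spread between these samples, which may in part be technical.

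The maxilla grows from the upper part of the first pharyngeal arch. Its neural crest mesenchyme gives rise to bone, cartilage, dermis and tooth pulp, while the covering ectoderm forms skin, vibrissae, tooth enamel and the lining of the nose. Sonic hedgehog, Wnt, FGF, BMP and retinoic acid signals between epithelium and mesenchyme pattern its outgrowth, and homeobox genes such as those of the Dlx and Msx families mark positions along it.

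The label of the jaw was checked with Hand2, a transcription factor of the lower jaw. Its signal was 5.40, 5.56 and 5.63 in distal and 6.97, 6.08 and 6.06 in proximal control maxilla arrays, against 12.56, 12.49 and 12.19 in distal and 9.78, 10.01 and 10.09 in proximal control mandible arrays. Tgfbr2, the floxed receptor gene, had a signal of 11.91, 11.90 and 11.89 in distal arrays, against 11.61, 11.52 and 11.71 in proximal arrays of control maxilla, a difference of 0.28 ± 0.09, adjusted p = 0.0583 in limma, which did not pass the threshold. It read 12.51, 12.20 and 12.16 in distal and 12.56, 12.47 and 12.16 in proximal mutant maxilla arrays, and because the position of the deleted exon relative to the probes is not given, this checks no label. Array medians lay between 6.93 and 6.999. The pieces were not alike in tissue makeup. Mean levels of olfactory and of respiratory nasal genes were lowest in distal array 2, where the cornified keratinocyte genes were highest, and proximal array 3 held keratinocyte genes well above the other 2 proximal arrays. Xist, which marks cells with 2 X chromosomes, read 13.43, 12.97 and 6.66 in distal arrays and 13.21, 6.49 and 6.28 in proximal arrays, so the distal and proximal arrays numbered 2 did not come from a single embryo. Among the mutant maxilla arrays, distal 1 lay with proximal 1 and 2 in mean muscle, cartilage and nasal genes. Mutant proximal 3 lay nearest to distal 2 and 3 in cartilage and nasal genes, while its muscle mean, at 1.09, lay between distal 3 at −0.24 and proximal 2 at 2.098. Where leaving out 1 array moved a count or a called value by over 1.5 times, the value without it is given.

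Of 12811 genes tested, 1079 (8.42%) differed between the ends at an adjusted p under 0.05 in limma, 652 higher (5.09%) and 427 lower (3.33%) in the distal than in the proximal maxilla. Differences are given as distal minus proximal on the log2 scale with their standard error and 3 arrays in each group, and the median over all genes tested was 0.02. The 3 distal and 3 proximal arrays did not overlap for 1068 of the called genes, against 4193 (32.7%) of all genes. At least 2-fold differences were called for 280 genes (2.19%), of which 175 were higher and 105 lower in the distal piece. In bulk tissue, fewer cells of a type and less RNA per cell cannot be told apart. Single arrays weighed heavily on the number of calls. It was 116 without distal array 2, 167 without proximal array 1, 677 without proximal array 2 and 626 without proximal array 3, and 2189 with array number as a block. Of the 131 called genes named below or in the gene lists, 24 remained called without any 1 of the 6 arrays, 20 of them higher and 4 lower in the distal piece. Those higher were Alpl, Col6a3, Dlx1as, Dlx2, Egr2, Egr3, Gli1, Jag1, Krt5, Krt14, Krt15, Lgr6, Omd, Osr1, Pdgfra, Ptch1, Shh, Sostdc1, Tnc and Zeb2, and those lower were Ctxn3, Fgf15, Rarb and Rasef. This set of 24 was gathered after its values were seen.

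**Figure D1:**
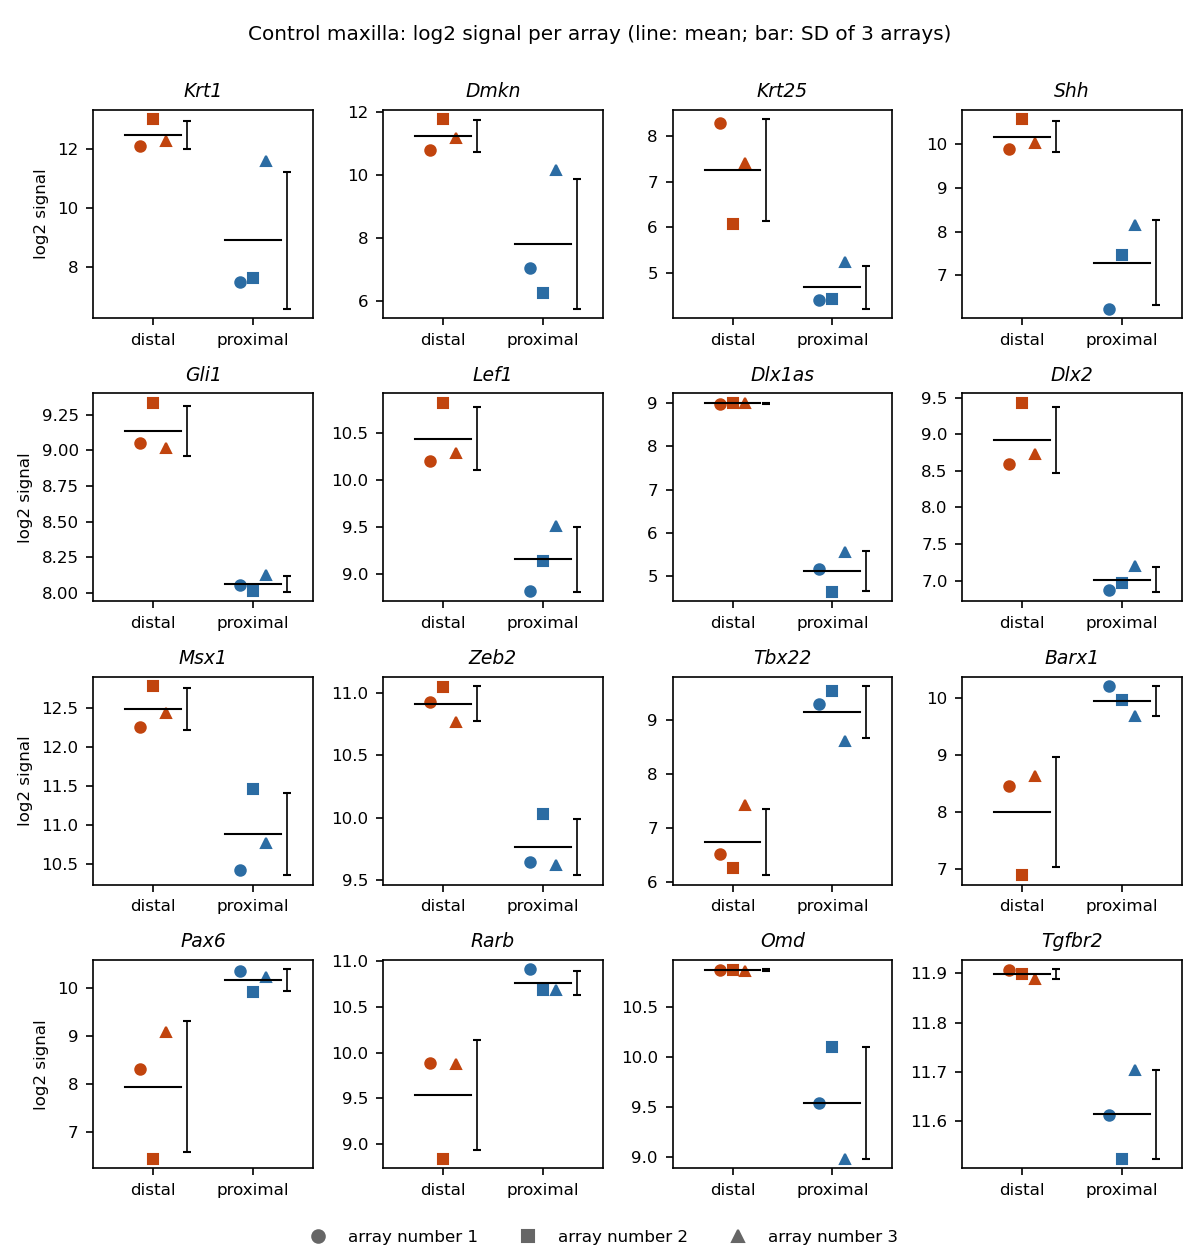
Log2 signal of 16 genes in the 3 distal (orange, left) and 3 proximal (blue, right) control maxilla arrays, each panel with its own vertical scale; symbols mark the array number, lines the mean and bars the SD of 3 arrays. Proximal array 3 lies near the distal arrays for Krt1 and Dmkn, distal array 2 is the lowest array for Barx1, Pax6 and Rarb, and the groups do not overlap for any of the 16 genes.

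Genes of the outer skin layers were higher in the distal piece. Of 16 tested cornified keratinocyte genes, 12 were higher and 0 lower in the distal maxilla, with a list median of 2.75 against 0.02 for all genes, and all 16 differences were positive. Krt1, the keratin that marks cells leaving the basal layer, had a signal of 12.12, 13.02 and 12.27 in distal arrays, against 7.50, 7.64 and 11.58 in proximal arrays. Its difference was 3.56 ± 0.78, adjusted p = 0.0109. Distal arrays lay above all proximal arrays, but proximal array 3 was within 1 log2 unit of distal array 1. Dmkn, which encodes the secreted epidermal protein dermokine, read 10.79, 11.78 and 11.19 in distal arrays, against 7.05, 6.26 and 10.16 in proximal arrays, with a difference of 3.43 ± 0.79, adjusted p = 0.0139. Krtdap, a secreted protein of differentiating keratinocytes, read 11.10, 12.15 and 11.53 in distal arrays, against 6.93, 6.996 and 10.58 in proximal arrays, with a difference of 3.42 ± 0.77, adjusted p = 0.0126. In both, proximal array 3 again stood apart from the other 2 proximal arrays and the groups did not overlap. The desmosomal cadherin gene Dsg1a differed by 3.78 ± 0.74, and the cornified envelope genes Sprr1a and Sprr1b by 3.21 ± 0.92 and 3.11 ± 0.95. Hrnr, which encodes the filaggrin-like protein hornerin, had the largest difference among the called genes whose arrays did not overlap, with 8.13, 10.59 and 8.74 in distal arrays, against 3.91, 4.06 and 6.72 in proximal arrays and a difference of 4.26 ± 0.98, adjusted p = 0.0144. The other 8 of the 15 largest rises were Them5, Dlx1as, Rptn, Krt6a, Aox4, Csta1, Serpinb2 and Sdr16c6, with differences between 3.09 and 4.002. Of these, Rptn encodes repetin and Csta1 a stefin of keratinocytes, and Krt6a is a keratin of stressed and oral epithelium. Proximal arrays 1 and 2 of Hrnr, Them5, Dsg1a, Rptn, Csta1, Sprr1b and Sdr16c6 read 3.67 to 4.69, near the lowest value of the series, 3.44. Background therefore limits the size and order of these differences. Calls in the cornified list numbered 0 without distal array 2, 0 without proximal array 1, 5 without proximal array 2 and 12 without proximal array 3, where the list median was 3.66, although each of the 15 largest rises kept its sign in every such fit. Mean levels of the list, centred on the 6 arrays, were 0.69, 1.91 and 1.12 in distal arrays, against −2.02, −1.90 and 0.21 in proximal arrays. In the control mandible 3 of the 16 were called higher distally and 0 lower, against 2.44% and 3.34% of all genes. Their mandible median was 1.62, and 0 were called for maxilla minus mandible. Between the mutant maxilla ends 0 were called, with a median of 0.15. On the same centring, mutant means were 0.54, 2.01 and 0.85 in distal arrays, against 0.86, 0.68 and 0.24 in proximal arrays.

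Promoters of 5 called cornified genes are shown because these genes lie in chromosomal clusters and moved together, and because each holds TGANTCA, a motif of the AP-1 type. Windows of 250 bases before and 50 bases after the start site, from RefSeq (GRCm38.p6), were searched on both strands, and 12 of the 16 tested genes had a window. The motif was found in 7 of these 12 genes (Dmkn, Krt13, Krtdap, Lor, Sbsn, Sprr1a and Sprr1b), 6 of them of the 9 called genes with a window, against 8.97% of all 27025 genes with a window. A TATAAA match was found in 6 of the 12 and in 15.7% of all genes with a window. The 250 bases before each start site follow, 5′ to 3′ along the gene, with the motif in capitals. It starts 81 bases before the start site in Krtdap (chr7:30787655-30787904, plus strand), 89 in Dmkn (chr7:30763506-30763755, plus strand), 119 in Sbsn (chr7:30751221-30751470, plus strand) and 48 in Lor (chr3:92083143-92083392, minus strand), and at 146 and 116 in Sprr1a (chr3:92485882-92486131, minus strand). The first 3 start sites lie within 36.4 kb of chromosome 7.
Krtdap: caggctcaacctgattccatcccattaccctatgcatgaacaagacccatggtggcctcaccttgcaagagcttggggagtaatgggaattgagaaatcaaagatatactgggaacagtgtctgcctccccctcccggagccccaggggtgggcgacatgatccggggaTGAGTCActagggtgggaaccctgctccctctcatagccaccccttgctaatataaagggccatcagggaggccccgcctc
Dmkn: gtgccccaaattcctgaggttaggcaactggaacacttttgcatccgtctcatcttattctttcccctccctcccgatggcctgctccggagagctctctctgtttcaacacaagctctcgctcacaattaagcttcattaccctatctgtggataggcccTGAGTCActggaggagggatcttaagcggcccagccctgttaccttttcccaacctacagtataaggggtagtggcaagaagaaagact
Sbsn: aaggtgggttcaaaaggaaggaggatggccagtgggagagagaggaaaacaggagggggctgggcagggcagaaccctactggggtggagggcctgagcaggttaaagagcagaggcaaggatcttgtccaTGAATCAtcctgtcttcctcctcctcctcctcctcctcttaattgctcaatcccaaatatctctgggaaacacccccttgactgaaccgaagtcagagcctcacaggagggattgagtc
Lor: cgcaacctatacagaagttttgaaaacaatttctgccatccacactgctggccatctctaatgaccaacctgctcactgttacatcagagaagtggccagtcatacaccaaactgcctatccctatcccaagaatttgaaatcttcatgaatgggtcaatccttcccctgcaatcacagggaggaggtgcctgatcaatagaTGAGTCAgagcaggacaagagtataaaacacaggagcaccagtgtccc
Sprr1a: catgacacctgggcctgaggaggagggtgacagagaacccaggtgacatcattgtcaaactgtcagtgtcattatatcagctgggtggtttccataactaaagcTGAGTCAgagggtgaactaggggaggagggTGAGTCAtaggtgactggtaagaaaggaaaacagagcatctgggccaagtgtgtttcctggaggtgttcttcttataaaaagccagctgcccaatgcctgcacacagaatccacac
Sbsn, a secreted epidermal protein gene, read 10.005, 11.55 and 10.52 in distal arrays, against 8.95, 9.13 and 9.74 in proximal arrays (1.42 ± 0.35, adjusted p = 0.0199). Lor, which encodes the cornified envelope protein loricrin, read 9.12, 11.17 and 9.95 in distal arrays, against 7.83, 7.74 and 8.85 in proximal arrays (1.94 ± 0.54, adjusted p = 0.0333). Both were highest in distal array 2, and their groups did not overlap. A match of letters in a window does not show that a factor binds there.

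Some genes of the basal layer and of skin and oral appendages were also higher distally. Of 20 tested surface and oral epithelial genes, 6 were higher and 0 lower in the distal piece, with a list median of 0.09. The differences were positive for 11 of the 20. Krt15, a basal keratin, read 12.61, 13.40 and 13.04 in distal arrays, against 9.96, 10.79 and 11.92 in proximal arrays, with a difference of 2.13 ± 0.34, adjusted p = 0.00239. Krt5 and Krt14, the paired keratins of basal cells, differed by 2.31 ± 0.42 and 1.86 ± 0.35. These 3 keratins were called without any 1 of the 6 arrays. The other called members were Perp, Grhl3 and Trp63, the p53-family factor that maintains stratified epithelium, with differences between 1.34 and 1.76. Cdh1, the E-cadherin gene, had a difference of −0.11 ± 0.24 and was not called, and differences in the list ran down to −1.20. Without proximal array 1, Grhl3 was at 1.12 and Trp63 at 0.89. The list had 3 calls without distal array 2 and 3 without proximal array 1. In the control mandible 9 of the 20 were called higher distally and 0 lower, with a median of 1.15, where 2.44% of all genes were called higher. Of 19 tested hair follicle and vibrissa genes, 11 were higher and 0 lower in the distal maxilla, with a median of 0.84. Sostdc1, a secreted inhibitor of BMP and Wnt signals in tooth and hair placodes, read 12.11, 12.78 and 12.30 in distal arrays, against 9.27, 10.62 and 11.21 in proximal arrays, with a difference of 2.03 ± 0.36, adjusted p = 0.00462. Krt25, a keratin of the inner root sheath of the hair, read 8.28, 6.07 and 7.41 in distal arrays, against 4.42, 4.44 and 5.24 in proximal arrays, with a difference of 2.56 ± 0.64, adjusted p = 0.0202. Here distal array 1 was highest and distal array 2 lowest of the distal group, the reverse of the cornified genes, and the groups did not overlap. Tchh, the inner root sheath protein gene trichohyalin, differed by 1.93 ± 0.51, Krt17 by 1.78 ± 0.45 and the zinc finger gene Trps1 by 1.51 ± 0.34. The hair list had 4 calls without distal array 2, 7 without distal array 3, 2 without proximal array 1 and 6 without proximal array 2.

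Of 23 tested tooth germ genes, 11 were higher and 1 lower in the distal maxilla, with a median of 0.71. The lower one was Barx1, a homeobox gene of the molar field. Its signal was 8.46, 6.89 and 8.64 in distal arrays, against 10.21, 9.97 and 9.69 in proximal arrays, a difference of −1.96 ± 0.56, adjusted p = 0.0367. Msx1, a homeobox gene of incisor and molar mesenchyme and of the anterior palate, read 12.25, 12.78 and 12.44 in distal arrays, against 10.41, 11.45 and 10.77 in proximal arrays, with a difference of 1.61 ± 0.31, adjusted p = 0.00669. Distal arrays of Msx1 all lay above proximal arrays, and those of Barx1 all below, with distal array 2 at the extreme of both. Lhx8, a LIM homeobox gene of tooth and palate mesenchyme, read 9.38, 9.92 and 9.42 in distal arrays, against 8.14, 8.80 and 6.75 in proximal arrays, with a difference of 1.68 ± 0.39, adjusted p = 0.0145. Calls in the tooth list numbered 3 higher and 0 lower without distal array 2, the same counts without proximal array 1, and 7 higher and 0 lower without proximal array 3. Barx1 lost its call without distal array 2 and without each of the 3 proximal arrays, Msx1 without distal 2 or proximal 1, and Lhx8 without distal 2, proximal 1 or proximal 3, the last of which left it at 1.11.

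**Figure D2:**
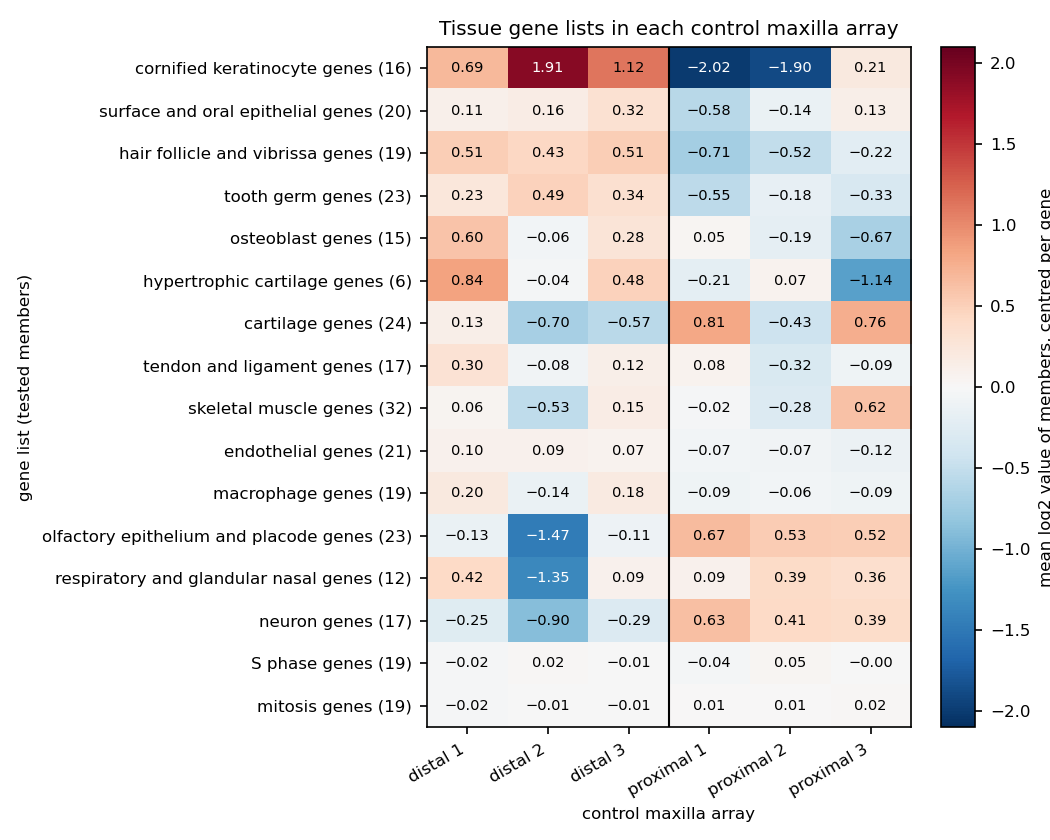
Mean log2 value of the tested members of 16 gene lists in each control maxilla array (distal arrays left of the line, proximal arrays right), each gene first centred on its mean over the 6 arrays; red is above and blue below that mean. Cornified keratinocyte genes stand at 1.91 in distal array 2 and −2.02 in proximal array 1, olfactory genes at −1.47 in distal array 2, and the S phase and mitosis lists lie within 0.05 of 0 in all 6 arrays.

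Sonic hedgehog and its readout genes were higher in the distal piece. Hedgehog ligands bind the receptor Ptch1, which frees Smo and switches Gli factors to activation, and Gli1, Ptch1 and Hhip are themselves transcribed in responding cells. Of 13 tested members of the pathway, 6 were higher and 0 lower in the distal maxilla. All 13 differences were positive, and the median was 0.55. Shh is also a member of the hair and tooth lists, so the counts of these lists are not separate results. Shh, the ligand, had a signal of 9.90, 10.58 and 10.04 in distal arrays, against 6.23, 7.46 and 8.16 in proximal arrays, a difference of 2.89 ± 0.47, adjusted p = 0.00264. Gli1, the activator that is also a target, read 9.05, 9.34 and 9.02 in distal arrays, against 8.06, 8.01 and 8.12 in proximal arrays, with a difference of 1.07 ± 0.15, adjusted p = 0.00119. Ptch1, the receptor, read 11.80, 11.98 and 11.78 in distal arrays, against 11.10, 11.08 and 10.999 in proximal arrays, with a difference of 0.79 ± 0.12, adjusted p = 0.00154. For all 3 genes the distal arrays lay above the proximal arrays, and for Gli1 the distal arrays spanned 9.02 to 9.34 and the proximal arrays 8.01 to 8.12. Hhip, the membrane-bound inhibitor, differed by 0.79 ± 0.16, adjusted p = 0.00902, Gli2 by 0.55 ± 0.12, adjusted p = 0.0104 and Gli3, mainly a repressor, by 0.45 ± 0.13, adjusted p = 0.0371. The co-receptor genes Boc, Cdon and Gas1 and the transducer Smo differed by 0.09 to 0.26 and did not pass. On the probe set with the largest interquartile range in place of the brightest, Ptch1 was at 0.31 (adjusted p = 0.630) and Gli3 at 0.31 (adjusted p = 0.522), and neither passed, nor did they with the mean of all probe sets. The distal and proximal means of a second Shh probe set were 5.65 and 4.95, a difference of 0.70 that did not pass. The pathway had 3 calls without distal array 2 and 3 without proximal array 1, and each time Shh, Gli1 and Ptch1 were still called. Gli1 alone of the 131 called genes named was called in every 1 of the 26 alternative settings. A GLI-type motif, GACCACCCA on either strand, was in 0 of the 9 hedgehog genes with a window and in 0.289% of all genes with one.

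Among Wnt genes, 16 of 31 tested were higher and 1 lower in the distal maxilla, with a median of 0.58. The ligands Wnt5a and Wnt10a were among them. Wnt5a, a non-canonical ligand of outgrowing facial mesenchyme, read 12.11, 13.05 and 12.67 in distal arrays, against 10.06, 11.58 and 11.31 in proximal arrays, with a difference of 1.63 ± 0.35, adjusted p = 0.0106. Lef1, the transcription factor that pairs with beta-catenin and marks placodes, read 10.20, 10.82 and 10.29 in distal arrays, against 8.82, 9.14 and 9.52 in proximal arrays, with a difference of 1.28 ± 0.25, adjusted p = 0.00738. Groups did not overlap for either, with distal array 2 highest and proximal array 1 lowest. Wnt10a differed by 1.24 ± 0.25, the R-spondin receptor Lgr6 by 1.15 ± 0.20, and the secreted antagonists Wif1 and Sfrp4 by 1.20 ± 0.23 and 1.15 ± 0.29. Secreted antagonists were called on both sides. The lower member, named after its values were seen, was Sfrp1, another secreted antagonist, with 11.63, 10.69 and 11.70 in distal arrays, against 12.32, 12.39 and 12.54 in proximal arrays and a difference of −1.08 ± 0.29, adjusted p = 0.0291. Calls in the Wnt list numbered 1 higher without distal array 2, 3 without proximal array 1 and 10 higher without any 1 of distal 3, proximal 2 and proximal 3. Lgr6 was the 1 call left without distal array 2, and Sfrp1 lost its call without distal 2 or without any 1 proximal array.

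**Figure D3:**
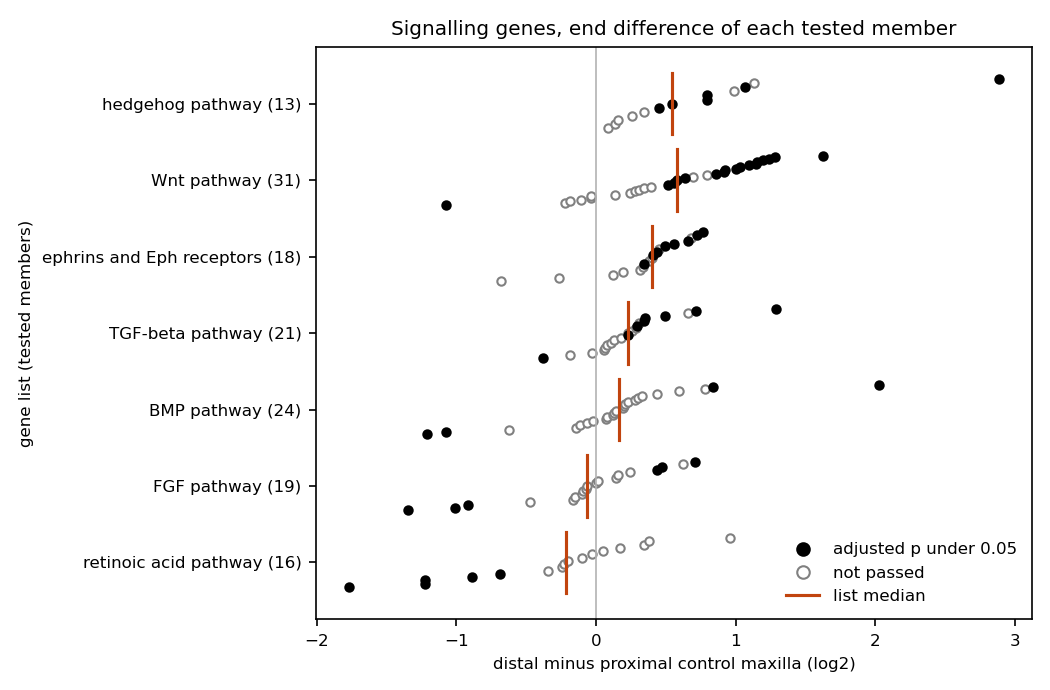
Distal minus proximal difference (log2) of each tested member of 7 signalling lists in the control maxilla; filled points passed an adjusted p under 0.05, open points did not, and the orange line is the list median. All 13 hedgehog members lie right of 0, with Shh at 2.89, and the 5 called retinoic acid members all lie left of 0.

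Homeobox and T-box genes divided between the ends. Dlx1as, annotated as an antisense transcript of the Dlx1 locus, had a signal of 8.99, 9.01 and 9.01 in distal arrays, against 5.16, 4.63 and 5.54 in proximal arrays. Its difference was 3.89 ± 0.56, adjusted p = 0.00119 and the 3 distal arrays lay between 8.99 and 9.01. Dlx1 itself, on another probe set, read 6.81, 7.79 and 7.05 in distal arrays, against 6.70, 6.24 and 7.10 in proximal arrays with a difference of 0.54 ± 0.40, adjusted p = 0.493, and its groups overlapped, and whether the Dlx1as probes also read the sense strand was not tested. Dlx2, next to Dlx1 on chromosome 2 and active in upper and lower jaw mesenchyme and in epithelium, read 8.59, 9.43 and 8.74 in distal arrays, against 6.87, 6.97 and 7.20 in proximal arrays. Its difference was 1.90 ± 0.31, adjusted p = 0.0025. Of the 6 tested Dlx genes, 2 were higher and 0 lower, the other being Dlx4 at 1.03 ± 0.28, adjusted p = 0.0293. Dlx3 differed by 0.75 ± 0.23 (adjusted p = 0.0501), while Dlx5 and Dlx6, which specify the lower jaw, differed by 0.15 ± 0.19 and −0.55 ± 0.24, and none of the 3 passed. Dlx4 lost its call without distal 2, distal 3, proximal 1 or proximal 2, and Dlx2 and Dlx1as kept theirs without any 1 of the 6 arrays.

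Genes known from palate development were called on both sides. In the anterior palate list 3 of 8 tested genes were higher and 0 lower in the distal piece. They were Msx1, Shox2, a homeobox gene of the anterior palatal shelf (1.04 ± 0.25, adjusted p = 0.0176), and the FGF receptor gene Fgfr2 (0.44 ± 0.11, adjusted p = 0.0208). Bmp4 had a difference of 0.78 ± 0.27 and Fgf10 one of 0.01 ± 0.21, and neither passed. In the posterior list 2 of 7 tested genes were higher and 2 lower. The lower ones were Barx1 and Tbx22, a T-box gene of the posterior palate whose human counterpart is mutated in X-linked cleft palate. Tbx22 read 6.52, 6.26 and 7.42 in distal arrays, against 9.30, 9.53 and 8.60 in proximal arrays, with a difference of −2.40 ± 0.45, adjusted p = 0.00593, and the groups did not overlap. Efnb1 and Grhl3 were higher, at 0.35 ± 0.09 and 1.76 ± 0.49, and Meox2, a posterior palate homeobox gene, differed by 0.11 ± 0.49 without passing. Of 11 palate shelf genes with no fixed end, 2 were higher. Osr1, a zinc finger gene of shelf mesenchyme, read 11.06, 12.02 and 11.40 in distal arrays, against 10.07, 10.15 and 10.07 in proximal arrays (1.40 ± 0.24, adjusted p = 0.00356), and the receptor gene Pdgfra differed by 0.43 ± 0.08, adjusted p = 0.00593. Calls fell to 0 in the anterior list without distal 2 or without proximal 1, and the posterior list had 0 calls without distal 2, 1 lower, Tbx22, without proximal 1, 2 lower without distal 3, and 1 higher and 1 lower without proximal 3. Osr1 and Pdgfra were called without any 1 of the arrays, and with array number as a block the shelf list had 5 higher calls. On probe sets with the largest interquartile range, Pdgfra was at 0.30 (adjusted p = 0.355), Efnb1 at 0.23 (adjusted p = 0.417) and Shox2 at 0.93 (adjusted p = 0.0521). With the mean of all probe sets Efnb1 was at 0.29 (adjusted p = 0.0676) and Fgfr2 at 0.29 (adjusted p = 0.0542). None of these passed.

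In the medial and distal face list 3 of 15 tested genes were higher and 0 lower, with a median of 0.71. Beside Msx1 these were Msx2 (1.57 ± 0.44, adjusted p = 0.0341) and Tfap2a, the AP-2 factor of crest and facial ectoderm (1.42 ± 0.31, adjusted p = 0.0121). The aristaless-related gene Alx1, needed for the mid-face, read 12.25, 12.95 and 12.53 in distal arrays, against 11.38, 11.86 and 11.81 in proximal arrays, a difference of 0.89 ± 0.48, adjusted p = 0.301 that did not pass although the groups did not overlap. In the list of maxillary and proximal identity factors 2 of 17 were higher and 4 lower, with a median of −0.29. The higher ones were Lhx8 and the POU factor gene Pou3f3 (1.43 ± 0.34, adjusted p = 0.0174), a marker of the upper jaw. The lower ones were Barx1, Pitx1 (−1.28 ± 0.33, adjusted p = 0.0225), which is needed for first arch and hindlimb growth, and the teashirt genes Tshz1 (−0.72 ± 0.18, adjusted p = 0.0202) and Tshz2 (−0.64 ± 0.15, adjusted p = 0.0148). In the 16 neural crest mesenchyme factors 6 were higher and 3 lower. Zeb2, a repressor active in migrating crest, read 10.93, 11.05 and 10.77 in distal arrays, against 9.64, 10.03 and 9.63 in proximal arrays, with a difference of 1.15 ± 0.16, adjusted p = 0.000928, and 0.67 (adjusted p = 0.119) on its probe set with the largest interquartile range. Twist2, a factor of dermal and bone precursors, read 10.64, 11.47 and 11.11 in distal arrays, against 8.17, 8.70 and 9.76 in proximal arrays, with a difference of 2.19 ± 0.51, adjusted p = 0.0151. Foxp2, a forkhead factor gene, read 9.31, 8.20 and 9.54 in distal arrays, against 10.71, 10.63 and 10.70 in proximal arrays, with a difference of −1.66 ± 0.41, adjusted p = 0.0199, and no groups overlapped among these 3 genes. The forkhead gene Foxc1 was also lower, by −0.998 ± 0.30, adjusted p = 0.0449. Both face lists had 0 calls without distal 2 and 0 without proximal 1, and the crest list had 1 higher call, Zeb2, in each case. The crest list had 5 calls without distal 3 and 4 without proximal 3, and the medial list had 4 higher and 1 lower without distal 1 and 5 higher and 1 lower with array number as a block.

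Genes of the olfactory lining were lower in the distal maxilla. Of 23 tested olfactory epithelium and placode genes 6 were lower and 0 higher, with a median of −1.44. Pax6, the paired-box gene of eye and nose placodes, read 8.31, 6.44 and 9.08 in distal arrays, against 10.34, 9.91 and 10.22 in proximal arrays, with a difference of −2.21 ± 0.56, adjusted p = 0.021. Ebf2, a helix-loop-helix factor of olfactory neurons, read 10.83, 8.57 and 10.76 in distal arrays, against 11.92, 11.46 and 11.63 in proximal arrays (−1.62 ± 0.49, adjusted p = 0.0478). In both genes all distal arrays lay below all proximal arrays and distal array 2 was the lowest. Hes6, Gnal, the G protein of olfactory transduction, Omp, the olfactory marker protein, and the proneural gene Neurog1 differed by −1.05, −0.94, −0.68 and −0.65. Neurog1 was at −2.94 (adjusted p = 0.0849) on its probe set with the largest interquartile range. Without distal array 2 the difference was −1.46 for Pax6, −0.88 for Ebf2, −0.65 for Hes6 and −0.44 for Omp. Mean levels of the list were −0.13, −1.47 and −0.11 in distal arrays, against 0.67, 0.53 and 0.52 in proximal arrays. Respiratory and glandular nasal genes, with 0 of 12 called in limma, 2 at an unadjusted p under 0.05 and a median of −0.65, had means of 0.42, −1.35 and 0.09 in distal arrays, against 0.09, 0.39 and 0.36 in proximal arrays. Neuron genes, a list of general neuronal markers, had 0 of 17 called in limma, 9 at an unadjusted p under 0.05 and a median of −1.04. Their means were −0.25, −0.90 and −0.29 in distal arrays, against 0.63, 0.41 and 0.39 in proximal arrays, so they moved with the olfactory genes, and their part in the olfactory difference was not tested. The olfactory list had 0 calls without distal array 2, 1 without proximal array 1, 3 without proximal 2 and 2 without proximal 3, and 10 with array number as a block. Its mean moved with the end of the piece, and its part in the other differences was tested only by adding it to the fit, where 95 of all genes were called. Other genes among the 15 largest falls were Slco4c1, Grp, Ctxn3, Rasef, St18, Sowaha, Myo5c, Abcd2, Slc17a6 and Slc14a1, with differences between −2.49 and −1.69. Without distal array 2, Grp was at −1.58, Abcd2 at −1.07 and Slc17a6 at −1.10. Among them Grp encodes gastrin-releasing peptide and Slc17a6 a vesicular glutamate transporter. Rasef, which encodes a Rab-family GTPase with an EF hand, read 5.32, 4.29 and 5.64 in distal arrays, against 6.99, 7.58 and 7.17 in proximal arrays, with a difference of −2.16 ± 0.29, adjusted p = 0.000883, and it was called without any 1 of the arrays.

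Retinoic acid is made by retinaldehyde dehydrogenases and read by nuclear receptors, and the called genes of its pathway stood lower in the distal piece. Of 16 tested members, 5 were lower and 0 higher, with a median of −0.22. Rarb, a receptor gene that is itself induced by retinoic acid, read 9.88, 8.84 and 9.88 in distal arrays, against 10.91, 10.68 and 10.68 in proximal arrays, with a difference of −1.22 ± 0.21, adjusted p = 0.00377. Aldh1a3, a synthesising enzyme of nasal and eye ectoderm, read 9.95, 9.06 and 10.08 in distal arrays, against 10.84, 11.11 and 10.80 in proximal arrays, with a difference of −1.22 ± 0.26, adjusted p = 0.0106. Groups did not overlap, and distal array 2 was the lowest array for both. The second synthesising enzyme gene Aldh1a2 differed by −0.89 ± 0.27, the oxidase gene Cyp1b1 by −1.77 ± 0.44 and the retinol carrier receptor gene Stra6 by −0.69 ± 0.17. Cyp26b1, which degrades retinoic acid, stood higher by 0.96 ± 0.36 but did not pass (adjusted p = 0.113). Without distal 2, Aldh1a2 was at −0.57. The list had 1 call without distal 2, which was Rarb, 2 without proximal 1 and 3 without proximal 3, and 3 higher and 5 lower with array number as a block. In the FGF list 3 of 19 genes were higher and 3 lower, with a median of −0.06. The receptor genes Fgfr1 and Fgfr2 were higher by 0.47 and 0.44, and Fgf3, a tooth ligand, by 0.71. The ligand genes Fgf15, Fgf20 and Fgf12 were lower, with Fgf15 at 6.21, 5.75 and 6.53 in distal arrays, against 7.49, 7.45 and 7.60 in proximal arrays (−1.35 ± 0.25, adjusted p = 0.00531). Without distal 2 the FGF list had 1 lower call, and without proximal 1 it had 2.

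Genes of the other TGF-beta superfamily and of Eph signalling were mostly small in their differences. In the TGF-beta list 7 of 21 genes were higher and 1 lower, with a median of 0.23. Tgfb2, a ligand of palate and crest mesenchyme, differed by 0.35 ± 0.08, adjusted p = 0.0139, the matrix latency protein gene Ltbp2 by 1.29 ± 0.28, adjusted p = 0.0104, and the type I receptor gene Tgfbr1 was the lower one (−0.38 ± 0.11, adjusted p = 0.034). In the BMP list 2 of 24 were higher and 2 lower, with a median of 0.17. Beside Sostdc1 these were Bmp6 (0.84 ± 0.22), the receptor gene Bmpr1b (−1.21 ± 0.32) and the joint ligand gene Gdf5 (−1.08 ± 0.29). Of 18 ephrins and Eph receptors 8 were higher and 0 lower, with a median of 0.40, among them Epha4 (0.77 ± 0.20), Epha3 (0.73 ± 0.17), Epha2 (0.66 ± 0.16) and the ligand gene Efna5 (0.56 ± 0.11). On the probe sets with the largest interquartile range Epha4 was at 0.18, Epha3 at 0.47, Efna5 at 0.45, Tgfb2 at 0.25 and Tgfbr1 at −0.55, and none of these 5 passed. Without distal 2 the TGF-beta, BMP and Eph lists had 1, 1 and 0 calls, and without proximal 1 they had 0, 1 and 1. Without proximal 3 they had 4, 1 and 4, the TGF-beta list had 5 without any 1 of the other 3 arrays, and the BMP list had 2 without distal 3. With array number as a block the BMP list had 7 higher and 2 lower calls.

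The few bone genes called in the maxilla were higher in its distal piece, while those called in the mandible were lower in its distal piece. Of 15 tested osteoblast genes 3 were higher and 0 lower in the distal maxilla, with a median of 0.58. Omd, which encodes the bone proteoglycan osteomodulin, had a signal of 10.87, 10.87 and 10.86 in distal arrays, against 9.54, 10.10 and 8.99 in proximal arrays, a difference of 1.33 ± 0.25, adjusted p = 0.00579. Alpl, the mineralising alkaline phosphatase of bone, read 11.66, 11.26 and 11.44 in distal arrays, against 10.55, 10.71 and 10.10 in proximal arrays, with a difference of 1.002 ± 0.20, adjusted p = 0.00699. For both, the distal arrays lay above the proximal arrays, and the calls held without any 1 of the 6 arrays. Pth1r, the parathyroid hormone receptor gene, differed by 0.69 ± 0.16, adjusted p = 0.0161 and lost its call without distal array 1 or proximal array 3. Sp7, the osteoblast master factor also called osterix, differed by 0.70 ± 0.22, adjusted p = 0.0529, which missed the threshold. The list had 6 calls with array number as a block. Of its 15 differences 14 were positive. Its array means were 0.60, −0.06 and 0.28 in distal arrays, against 0.05, −0.19 and −0.67 in proximal arrays, so the ends overlapped. Later markers spread widely within each end, such as Dmp1, a matrix protein gene of osteocytes, with 11.81, 10.06 and 10.90 in distal arrays, against 11.11, 9.60 and 8.97 in proximal arrays, where the groups overlapped. In the control mandible 0 of the 15 were higher and 11 lower in the distal piece, with a median of −0.82, where 740 of all genes (5.78%) were called, 2.44% higher and 3.34% lower.

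The difference of the end differences, maxilla minus mandible, was called for 514 of 12811 genes (4.01%), 372 positive (2.9%) and 142 negative (1.11%). The 2 end differences share no array. The count was 316, 288, 292 and 300 without maxilla arrays distal 1, distal 2, proximal 1 and proximal 3, and 300, 298 and 183 without mandible arrays distal 1, distal 3 and proximal 1, and it was 1432 with array number as a block. For the osteoblast genes it was positive and called for 11 of 15 and negative and called for 0, with a median of 1.70 against 0.01 for all genes. Dmp1 gave 3.73 ± 0.77 (adjusted p = 0.0105). Its control mandible arrays read 10.16, 9.65 and 9.81 at the distal and 13.07, 12.45 and 12.19 at the proximal end. Phex, a peptidase gene of mineralising bone, gave 3.24 ± 0.75 (adjusted p = 0.0223), Omd 2.06 ± 0.35 (adjusted p = 0.00337) and Alpl 1.80 ± 0.28 (adjusted p = 0.00174). The list count was 6 without proximal mandible array 1, 7 without distal maxilla array 1 and 7 without proximal maxilla array 3, and Phex lost its call in each of these fits and without distal mandible array 1. Of the 6 tested genes of hypertrophic cartilage 4 were called positive, namely Alpl, Pth1r, the channel gene Panx3 (1.71 ± 0.40) and Ihh, the hedgehog ligand of growth cartilage (1.12 ± 0.20). Cartilage genes were called in neither comparison, with 0 of 24 called between the ends of the maxilla in limma, 2 at an unadjusted p under 0.05, a median of −0.60 and array means of 0.13, −0.70 and −0.57 in distal arrays, against 0.81, −0.43 and 0.76 in proximal arrays. The smallest unadjusted p in that list was for Epyc, a cartilage proteoglycan gene, at −2.46 ± 0.90 (adjusted p = 0.0994).

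**Figure D4:**
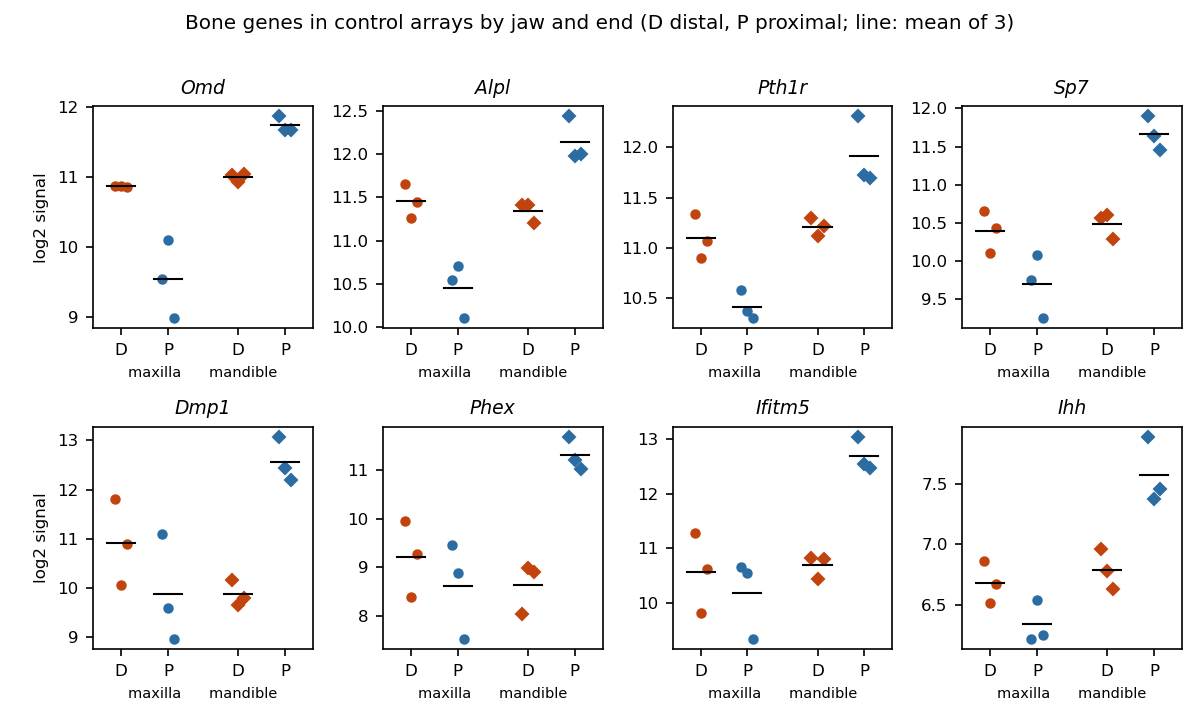
Log2 signal of 8 bone genes in the distal (D, orange) and proximal (P, blue) control arrays of the maxilla (circles) and mandible (diamonds), with the mean of 3 arrays as a line and a separate vertical scale in each panel. In the mandible the distal arrays lie below the proximal arrays in all 8 panels, while in the maxilla the distal arrays lie above for Omd, Alpl, Pth1r and Sp7 and overlap with the proximal arrays for Dmp1, Phex, Ifitm5 and Ihh.

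Patterning genes gave the largest contrasts between the jaws. Tbx22 was lower in the distal maxilla but read 8.76, 8.60 and 9.31 in distal and 7.003, 7.04 and 6.80 in proximal control mandible arrays, and the difference between the jaws was −4.35 ± 0.64 (adjusted p = 0.00135). Alx1 read 12.02, 11.91 and 11.58 in distal and 7.25, 7.80 and 6.09 in proximal mandible arrays, so that its end difference was 4.79 there and 0.89 in the maxilla, with −3.90 ± 0.68 between them (adjusted p = 0.00381). Hand2 gave −3.29 ± 0.52 (adjusted p = 0.00207). Dlx1as was near level between the mandible ends, at 10.34, 9.97 and 9.72 in distal and 9.85, 10.23 and 9.49 in proximal arrays, and gave 3.74 ± 0.79 (adjusted p = 0.0137). Egr3, an immediate early transcription factor gene, gave 3.19 ± 0.54, the matrix gene Vit, which encodes vitrin, 2.89 ± 0.23, and the secreted sushi-repeat protein gene Srpx2 2.72 ± 0.37. Ckmt1, a mitochondrial creatine kinase gene, gave −3.23 ± 0.71, the neuropeptide receptor gene Qrfpr −2.56 ± 0.24 and Ctxn3 −2.35 ± 0.56. Dmp1, Egr3, Vit, Srpx2, Tbx22, Alx1, Hand2 and Qrfpr were called in every alternative fit of this contrast, and Dlx1as was lost only with the olfactory mean in the fit and without both control maxilla arrays numbered 2. Ckmt1 was lost without proximal mandible array 1 and without both control maxilla arrays numbered 2, and Ctxn3 without several single arrays of either jaw, among them distal maxilla array 2. Of 13 hedgehog genes 3 were called positive and 0 negative, with a median of 0.22. Gli1 (1.07 ± 0.22, adjusted p = 0.00947), Ptch1 (0.67 ± 0.17, adjusted p = 0.0333) and Ihh were the ones called, named after their values were seen. Without 1 or another array the hedgehog count was 2 or 3. Gli1 did not differ by more than its error between the mandible ends (−0.00 ± 0.15). Shh differed by 1.39 ± 0.47 between the mandible ends (adjusted p = 0.102), and its contrast between the jaws was 1.498 ± 0.67 (adjusted p = 0.242), so neither passed. Of 20 surface and oral epithelial genes 5 were called negative in this contrast (Cldn6, Ap1m2, Cdh1, Esrp1 and Cldn4, named after their values were seen), but 0 were without maxilla arrays distal 2, proximal 2 or proximal 3 or mandible arrays distal 3 or proximal 1, 1 was without distal maxilla 1 or proximal mandible 2, 2 without distal mandible 1, and 3 without distal maxilla 3 or proximal maxilla 1.

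**Figure D5:**
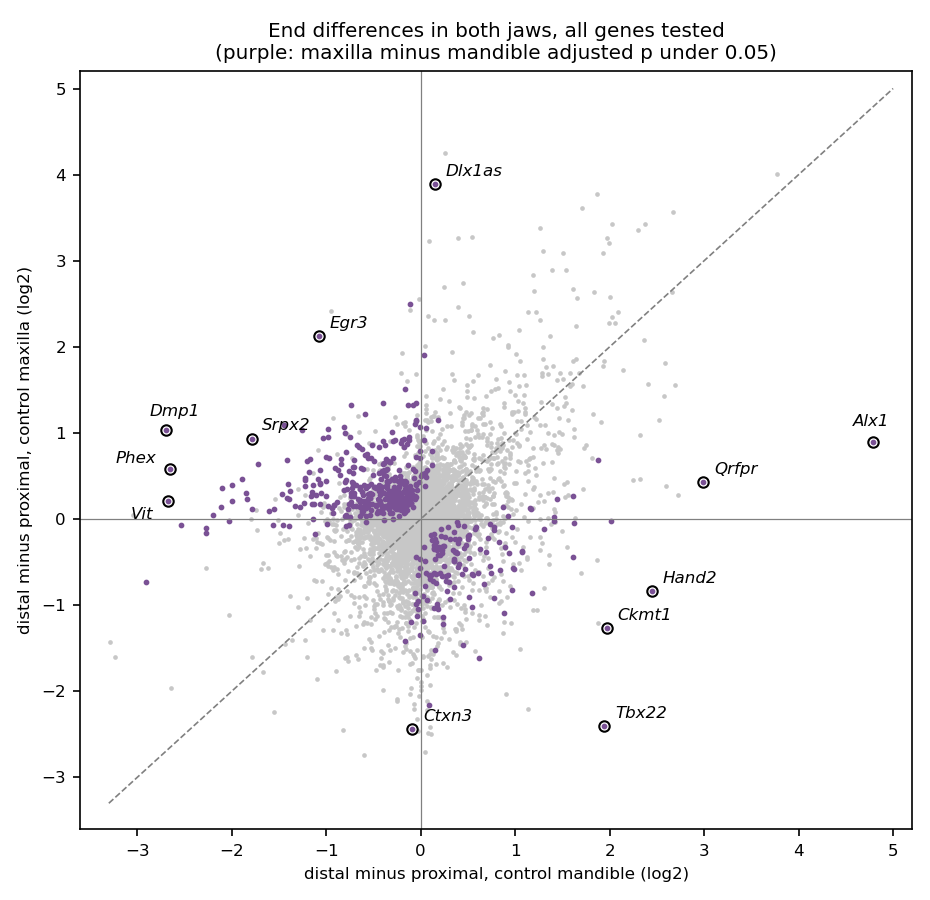
Distal minus proximal difference of all 12811 genes in the control maxilla (vertical) against that in the control mandible (horizontal), both log2; purple points passed the test of the difference between the jaws, circles mark the 12 genes named by rule, and the dashed line marks equal differences. Dmp1, Phex, Vit, Srpx2 and Egr3 lie left of 0 and above it, Alx1 lies far right at 4.79, and Dlx1as lies near 0 on the horizontal axis at 3.89 on the vertical axis.

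Of the 1079 genes called in the maxilla, 153 were also called between the mandible ends, 14.2% of the maxilla calls and 20.7% of the mandible calls, and 116 of the 153 went the same way. Between the ends of the mutant maxilla 49 genes (0.382%) were called, 37 higher (0.289%) and 12 lower (0.0937%) distally. The end difference itself, mutant minus control, was called for 1 gene (0.00781%) in limma, with 1360 genes at an unadjusted p under 0.05. That gene was Krt25, which read 7.68, 4.82 and 4.64 in distal and 8.13, 10.26 and 8.93 in proximal mutant arrays, and its difference between genotypes was −5.95 ± 0.90 (adjusted p = 0.0406). All distal mutant arrays lay below all proximal mutant arrays for Krt25, the reverse of the controls, and mutant distal array 1 was closest to the proximal arrays. The trichohyalin gene Tchh gave −4.15 ± 0.72 (adjusted p = 0.108) and Egfl6, a matrix protein gene with EGF repeats, −1.54 ± 0.28 (adjusted p = 0.108), and neither passed. In the other direction Rasef (2.02 ± 0.41), Lyrm9 and Fsd1 had the smallest p and did not pass. Without mutant distal array 1 the count was 428, without mutant proximal array 3 it was 652, without control proximal array 3 it was 37, and without any other single array it was between 0 and 4. Without mutant arrays distal 1 and proximal 3 together, an alternative chosen after seeing the data, it was 1979, and 1903 genes were called between the mutant ends. Krt25 was then at −7.03 (adjusted p = 1.55e-05). Krt25 lost its call in 14 of its alternative fits. Omd read 10.70, 10.43 and 11.54 in distal and 9.45, 9.47 and 8.83 in proximal mutant maxilla arrays, distal above proximal as in the controls.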

How the data were processed

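Whole pieces of embryonic day 14.5 jaws were measured on 24 one-colour arrays in 8 groups of 3, by genotype, end and jaw. The deposited values are log2 signals of 45101 probe sets, and per the submitters' processing notes they were made with Partek 6.6 and RMA, which corrects background, equalises array distributions and summarises probes, so very low signals are compressed. No genome build is named in the labels for these arrays. Values ranged from 3.44 to 14.83, the number of arrays limits the precision, and counting depth has no meaning for them.

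Gene symbols came from the platform annotation, in which 34945 probe sets had 1 symbol, 932 several and 9160 none, with 64 control probe sets left out. Of these, 34741 were matched by Entrez number to the RefSeq gene table and 0 symbols needed updating. Of 18193 genes, 9010 had several probe sets, and for these the one that was brightest on average across the 24 arrays was taken. Of the other probe sets of the called genes named, 125 of 127 had the same sign, and those of Egr3 and Rptn that did not differed by −0.08 and −0.01. Genes above the array median in at least 3 arrays were tested, 12811 in all. The groups were fitted together in limma 3.58.1 (R 4.3.3; lmFit and eBayes) with two-sided tests, Benjamini-Hochberg adjustment over all genes tested and a threshold of 0.05. On simulated data of 12811 genes the same steps recovered 83 of 90 genes changed by 1 on the log2 scale. They recovered 107 of 110 genes changed by 2, with 11 false calls in all. The simulated noise was independent between genes and equal in spread over the 8 groups. In the measured arrays whole gene lists moved together, so these counts give no error rate for them.

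Same-numbered distal and proximal control maxilla arrays deviated together from their group means, with correlations over genes of 0.50, 0.18 and 0.11, against −0.33 to 0.13 for unmatched numbers, of which distal 2 with proximal 3 exceeded the matched pair numbered 3, so array number was also fitted as a block. Deviations from a mean of 3 arrays sum to 0 for each gene, so positive correlations of matched numbers push those of unmatched numbers down. The gap between the 2 kinds is therefore in part built in. The number comes from the titles, and the Xist values show that number 2 is not 1 embryo. The smallest root mean square difference between 2 arrays of a group was 0.18, and none were identical.

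Named genes were the 15 largest rises and 15 largest falls among called genes without overlap, up to 6 members of each gene list (all members of the palate, Dlx, medial face and maxillary identity lists), the 6 largest each way in each contrast of end differences (the 3 with the smallest p where fewer than 3 passed) and Tgfbr2. Genes that mark sex, such as Xist, were skipped, but other genes of the X chromosome were not. Among the named genes, Tbx22, Phex, Srpx2 and Egfl6 lie on the X chromosome. The members and the 46 gene lists were chosen with earlier results of these data known. Lists share members, among them Shh, Sostdc1, Barx1, Alpl and Egr2, so the counts of different lists are not independent. Some genes of these lists are not reported here. Alternatives covered the arrays in the fit, filters, normalization, choice of probe set, variance model, block, tissue covariates and arrays left out. Promoters were read and figures drawn with Python 3.11.15.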

Additional observations from a re-analysis of the deposited data

Results flagged for a closer look

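For 12 genes the distal minus proximal difference of the control maxilla departed from that of the control mandible in a test of the difference itself, and they are the largest such genes each way. On the positive side, maxilla minus mandible, stood Dlx1as at 3.74, Dmp1 at 3.73, Phex at 3.24, Egr3 at 3.19, Vit at 2.89 and Srpx2 at 2.72. On the negative side stood Tbx22 at −4.35, Alx1 at −3.90, Hand2 at −3.29, Ckmt1 at −3.23, Qrfpr at −2.56 and Ctxn3 at −2.35. Tbx22 differed by −2.40 in the maxilla and 1.94 in the mandible, both called. Ckmt1 differed by −1.26 in the maxilla, which did not pass (adjusted p = 0.137), and by 1.97 in the mandible. Dlx1as and Ctxn3 differed by 0.15 and −0.09 in the mandible, and Vit and Qrfpr by 0.21 and 0.43 in the maxilla. Signals of Qrfpr in the control maxilla (3.90 to 4.69) and of Ctxn3 in the control mandible (4.75 to 5.12) were far under the array medians. Dlx1as in proximal control maxilla arrays (4.63 to 5.54) was under them as well. So were Ckmt1 in proximal (5.47 to 6.19) and Vit in distal control mandible arrays (5.88 to 6.53). Hand2 in the control maxilla read 5.40 to 6.97, at most level with the medians. Some arrays of Tbx22, Alx1 and Egr3 also lay under them. Background limits the differences of all these genes. Vit read 8.03, 7.94 and 7.91 in distal and 7.69, 7.80 and 7.76 in proximal control maxilla arrays, against 6.10, 6.53 and 5.88 in distal and 8.79, 9.02 and 8.73 in proximal control mandible arrays. Muscle marker means also differed between the jaws, with −0.53 to 0.62 over the maxilla arrays and 1.83 to 3.11 over the mandible arrays, and their part in these contrasts was not tested beyond the fit that includes them.

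For 1 gene, Krt25, the end difference departed between genotypes, at −5.95 for mutant minus control maxilla. Krt25 differed by −3.39 ± 0.64 between the mutant ends and by 2.56 ± 0.64 between the control ends. Krt25 is an inner root sheath keratin, and its companion Tchh differed by −2.22 ± 0.51 between the mutant ends and 1.93 ± 0.51 between the control ends. In the mutant maxilla, cartilage list means, centred on the control maxilla arrays, were −2.80, −0.27 and −0.25 in distal arrays 1 to 3 and −2.88, −3.05 and −0.12 in proximal arrays 1 to 3. Whether 2 of those pieces carry each other's labels cannot be told from these values. Omd kept distal above proximal in all 6 arrays. Osteoblast list means overlapped, at 0.68, −0.01 and 0.82 in distal and 0.07, −0.20 and −0.58 in proximal mutant arrays. Alx1 also overlapped, with 10.82, 12.83 and 13.04 in distal and 10.57, 10.55 and 11.70 in proximal mutant arrays.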

How the results depend on the processing

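None of the 131 called genes named changed sign in any alternative of the control maxilla contrast, while 43 of the 158 named genes that were not called did in at least 1. With the probe set of the largest interquartile range 25 of the 131 lost their call, and 11 did with the mean of all probe sets. Of the same 131, 101 lost it with the 6 control maxilla arrays alone, 127 with the 12 maxilla arrays and 117 with the olfactory mean. Called genes numbered 1079 between the control maxilla ends, 514 for maxilla minus mandible and 1 for mutant minus control. They were 1656 and 1035 with the 12 control arrays, 269 with the 6 control maxilla arrays alone (194 shared with the 1079), and 44, with 0 for the genotypes, with the 12 maxilla arrays. With array weights they were 2859, 2002 and 2414. With array number as a block within genotype and jaw they were 2189, 1432 and 390, and with a replicate block within genotype 1963, 1216 and 0. The olfactory mean as covariate gave 95, 228 and 0. The muscle mean gave 906 for the jaws and 0 for the genotypes. The genotype contrast had 5 calls with no filter or with the 25th percentile filter and 0 with quantile normalization or the cartilage mean. Leaving out single arrays gave 116 to 996, 183 to 395 and 0 to 652. Chosen after seeing the data were sex from Xist as covariate (0 for the genotypes), leaving out both control maxilla arrays numbered 2 (101, 233 and 0) and leaving out mutant distal 1 and proximal 3 (1979 for the genotypes). The other settings stayed within 1.5 times. In the fits with the block, no gene among the 15 largest rises or the 15 largest falls lost its call within genotype and jaw. With the 6 control maxilla arrays alone 14 of the 15 rises and 12 of the 15 falls lost their call. All 15 rises and all 15 falls did with the 12 maxilla arrays. The olfactory mean as covariate left 14 rises and 12 falls without a call. Where 1 array was left out of a group of 3, the spread was shared over the 8 groups. The causes of these shifts were not tested. Array weights and fits on fewer arrays change the estimated spread by construction. Of the called genes, 165 had a group mean under the array median, where signal over background limits the difference.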

Other observations

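Some connective tissue genes not described above also stood higher in the distal control maxilla, and others lower. Of 17 tested tendon and ligament genes 4 were higher and 1 lower, with a median of 0.30. Tnc, which encodes the matrix protein tenascin C, read 11.83, 11.53 and 11.32 in distal arrays, against 10.30, 10.64 and 10.08 in proximal arrays, with a difference of 1.22 ± 0.23, adjusted p = 0.00572, and the groups did not overlap. Scx, the transcription factor gene that marks tendon progenitors, was the lower one, at 6.75, 6.58 and 6.98 in distal arrays, against 7.59, 7.74 and 7.85 in proximal arrays (−0.96 ± 0.20, adjusted p = 0.00968). Egr2, Tnmd and Lum, for tenomodulin and the collagen-binding lumican, were higher by 1.09 ± 0.21, 0.92 ± 0.28 and 0.30 ± 0.09. Egr2 is also counted among the immediate early genes below. Comp had the lowest difference of the list, −2.20 ± 0.93, and was not called (adjusted p = 0.162). This list had 2 calls without distal 2 and 3 without distal 3, proximal 1 or proximal 3, and 10 with array number as a block. Of 16 dermal and loose connective tissue genes 5 were higher and 0 lower, with a median of 0.26. Col6a3, a chain of collagen VI, read 13.37, 13.10 and 13.07 in distal arrays, against 12.70, 12.55 and 12.40 in proximal arrays (0.63 ± 0.13, adjusted p = 0.00842). The elastic fibre genes Fbln2, Fbln5 and Eln differed by 0.78 ± 0.17, 0.57 ± 0.11 and 0.45 ± 0.11. The dermal list had 1 call without distal 2 and 3 without distal 1, proximal 2 or proximal 3.

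Immediate early genes, which respond within minutes to growth factors and to handling of tissue, gave 4 higher and 1 lower of 16 in the distal maxilla, with a median of 0.33. Egr3 read 8.94, 9.57 and 8.83 in distal arrays, against 6.75, 6.92 and 7.31 in proximal arrays, with a difference of 2.12 ± 0.38, adjusted p = 0.00462. Egr2, Zfp36 and the heat shock gene Hspa1b were the other higher members, and Btg2 was the lower one. In the control mandible 0 of the 16 were higher and 3 lower, and 5 were called positive for maxilla minus mandible (Egr1, Egr2, Egr3, Nr4a1 and Zfp36, named after their values were seen). The list had 2 calls without distal 2 and 2 without proximal 1. Cell cycle genes did not separate the ends. In limma 0 of 19 S phase genes and 0 of 19 mitosis genes were called, with 0 in each at an unadjusted p under 0.05 and differences from −0.13 to 0.13 and from −0.14 to 0.13. Of 22 hypoxia and glycolysis genes 0 were called (2 at an unadjusted p under 0.05), and of 19 macrophage genes 0 (1 at an unadjusted p under 0.05). Of 32 skeletal muscle genes 1 was called, Tbx1, a T-box gene of pharyngeal and muscle precursors (0.99 ± 0.26, adjusted p = 0.0276), and its call was lost without distal 1, distal 2 or proximal 1.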
